A study of Homo sapiens with 3 samples.

Results

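Solute carriers are membrane proteins that move amino acids, sugars, ions, metals, vitamins and metabolites across the plasma membrane and the membranes of organelles. They work by facilitated diffusion, by exchange or by coupling transport to an ion gradient, and they are grouped in numbered families by sequence. In tumour cells they are known for supplying amino acids, glucose and metals for growth and for exporting acid. The genes described here are the 157 rows, of 13936 gene rows in the deposited table, whose mouse symbol has the Slc family form and whose mean over the 3 libraries was at least 50 scaled counts. Slc7a11, Slc2a1 and Slc16a3 were left out by the rule.

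The libraries are of AB12, a mouse malignant mesothelioma line grown in RPMI with 10% serum. There were 2 shNF2 libraries, numbered 20 and 21 in their titles, and 1 shSC library, taken as the control hairpin. Merlin, the product of NF2, is a tumour suppressor at the cell membrane that acts above the Hippo pathway. The comparison asks how the transcriptome of cells with the NF2 hairpin differs from that of control cells. The labels do not say whether 20 and 21 are different hairpins or separate cultures. A p-value here rests on the spread between libraries 20 and 21, pooled with that of other genes, and shSC was taken to vary likewise. Part or all of that spread may be technical. Although the samples are labelled human, the gene identifiers are those of mouse. Nf2 had 486 and 458 scaled counts in libraries 20 and 21, against 1539 in shSC. Genes held 25837151 and 26829163 reads in libraries 20 and 21 and 29532600 in shSC. Of 9 mesothelial markers 5 were in the table, with summed levels of 39947 and 33759 scaled counts in libraries 20 and 21 and 43900 in shSC. Msln, 1 of the 5, lay the other way, with 9722 and 8977 in libraries 20 and 21 and 7397 in shSC. Of 8 macrophage markers 4 were in the table, summing to 8559 and 8070 scaled counts in libraries 20 and 21 and 9307 in shSC, and of 5 fibroblast markers 2, summing to 20.9 and 21.4 and to 13.6 in shSC. No lymphocyte or endothelial marker of the 5 and 4 listed was in the table.

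The symbol rule also took in 4 genes that are named after a carrier and are not carriers themselves. The other 153 rows are called carriers here by the form of their symbol, including Slc3a2, a heavy chain that partners carriers. By substrate these were 19 genes for amino acids, 5 for sugars and related polyols, 46 for ions and metals, 32 of the Slc25 family, 24 for nucleotide sugars and nucleosides, and 27 for other organic substrates. The classes mostly followed family numbers. All 21 Slc35 rows were thus placed with nucleotide sugars and nucleosides, whatever the substrate of a single member. Most Slc25 proteins are carriers of the mitochondrial inner membrane; Slc25a17 is known as a peroxisomal carrier and Slc25a46 as a protein of the mitochondrial outer membrane. A further 41 matching symbols had a mean under 50. Just inside that limit were Slc41a3, with a mean of 60.0, and Slc22a18, with 66.9. Just outside it were Slc17a9, with 47.1, and the pseudogene Slc2a4rg-ps, with 43.6. Their log2 fold changes of shNF2 over shSC were -1.28 and -0.97.

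For 141 of the 157 rows the log2 fold change of shNF2 over shSC lay within 0.5 of 0, and no single carrier passed the test. With limma over 12813 genes, 0 of 157 rows passed an adjusted p of 0.05, beside 0.843% of all genes tested. Split by direction, 0 rows passed above shSC and 0 below it, beside 0.414% and 0.429% of all genes. So few genes passed in the whole table that 0 of 157 rows does not stand apart from this background. edgeR and DESeq2 on the recovered reads also called 0 of the 157 rows, beside 0.632% and 0.765% of all genes. At an unadjusted limma p under 0.05 there were 11 rows, which is 7.01% of them, beside 9.27% of all genes tested. Of these 11, 6 (3.82%) were above shSC and 5 (3.18%) below, beside 4.36% and 4.91% of all genes in those directions.

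The median log2 fold change of the 157 rows, on the log2(scaled count + 1) scale, was -0.03, beside 0.00 over all genes tested. Single rows ran from -0.86 to 1.21. The 141 rows with an absolute log2 fold change under 0.5 were 89.8%, beside 86.6% of the 10866 genes with the same mean of at least 50. The median absolute value was 0.19 for the rows and 0.21 for those genes. The standard error of a row's log2 fold change ran from 0.21 to 0.48, with a median of 0.25. For 125 rows (79.6%) the 95% interval of the log2 fold change lay within 1 unit of 0, so a 2-fold difference lay outside the interval. The smallest absolute log2 fold change that passed anywhere in the table in this fit was 0.99, so the smaller differences described here lay under what it called.

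**Figure D1:**
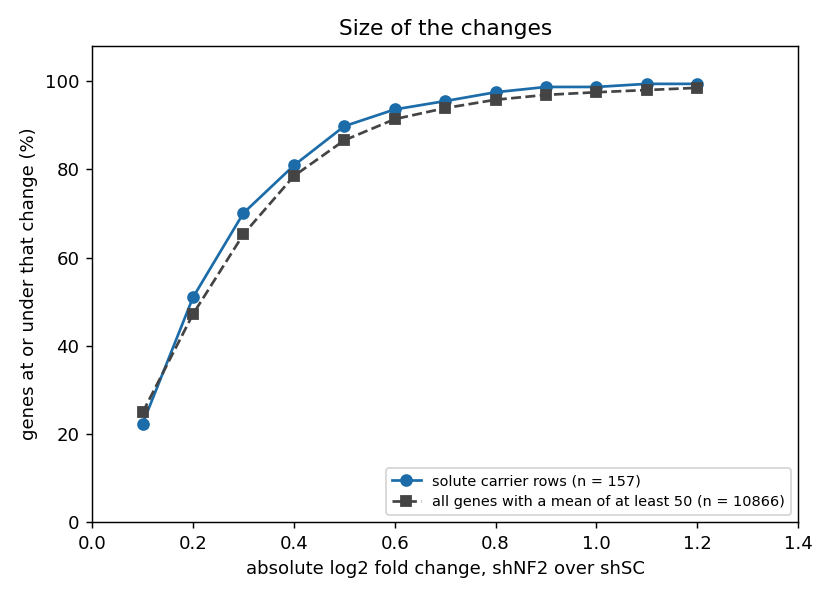
Share of genes (%) whose absolute log2 fold change of shNF2 over shSC is at or under the value on the x axis. Circles are the 157 solute carrier rows and squares all 10866 genes with a mean of at least 50. The curves lie close together: at 0.5 they stand at 89.8% and 86.6%.

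Both shNF2 libraries were above shSC for 59 rows (37.6%) and below it for 64 (40.8%), beside 36.1% and 35.8% of all genes tested. For 34 rows (21.7%) the libraries lay on opposite sides of shSC, beside 28.1% of all genes. The libraries share the shSC library, so a shared direction is no replication. No row was at least 2-fold above shSC in both libraries, beside 1.33% of all genes tested and 0.69% of those with a mean of at least 50. None was at least 2-fold below it in both, beside 1.30% and 0.791%. This depends on the limit of 50. Among the 27 matching symbols tested under it, 4 were at least 2-fold above shSC in both libraries and 5 below. Over all 12813 genes tested, 171 were at least 2-fold above shSC in both libraries and 167 below. Of these, 75 and 86 had a mean of at least 50. The share over the genes under that limit alone was not computed. At an unadjusted limma p under 0.05 there were 9 of the 27, beside 9.27% of all genes tested, and 0 of the 27 passed. At 1.5-fold, Slc2a9, Slc4a11 and Slc35f2 were above shSC in both libraries and Slc20a1 was below it in both. These 3 rows above (1.91%) and 1 below (0.637%) stood beside 3.82% and 3.98% of all genes tested, and 2.53% and 2.76% of those with a mean of at least 50.

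**Figure D2:**
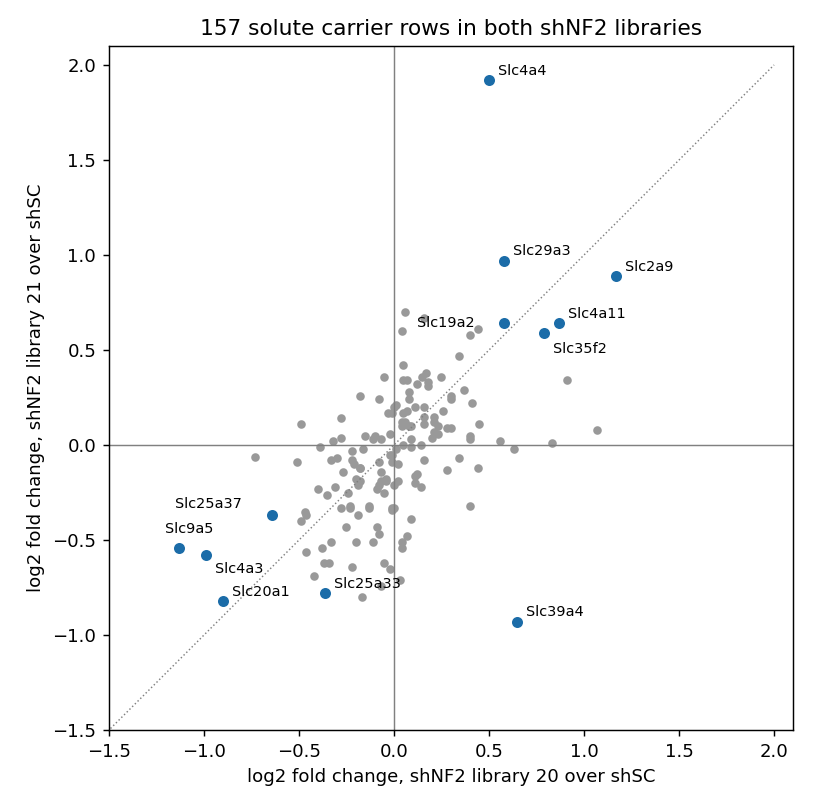
Log2 fold change over shSC in shNF2 library 20 (x axis) and library 21 (y axis) for each of the 157 rows; blue points are the 11 rows with an unadjusted p under 0.05 and Slc39a4, and the dotted line marks equal values. Slc20a1 sits near the line at -0.90 and -0.82, while Slc39a4 lies at 0.65 in library 20 and -0.93 in library 21.

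Slc20a1 came nearest to the threshold. It encodes a sodium-coupled phosphate importer of the plasma membrane, which also serves as a receptor for some retroviruses. It had 2644 and 2797 scaled counts in libraries 20 and 21, against 4936 in shSC. Both shNF2 values were below shSC and close to each other. Its log2 fold change was -0.86 ± 0.21 (SE), with a 95% interval of -1.31 to -0.41, and it did not pass (limma adjusted p = 0.0913). It did pass without the filter on low values (limma adjusted p = 0.0317) and after a length and GC correction (limma adjusted p = 0.0394), while the adjusted p under the 10 alternative fits ran up to 0.547. The other phosphate importer of that family, Slc20a2, had a log2 fold change of 0.19. Xpr1, a phosphate exporter that carries no Slc symbol, had 0.30.

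**Figure D3:**
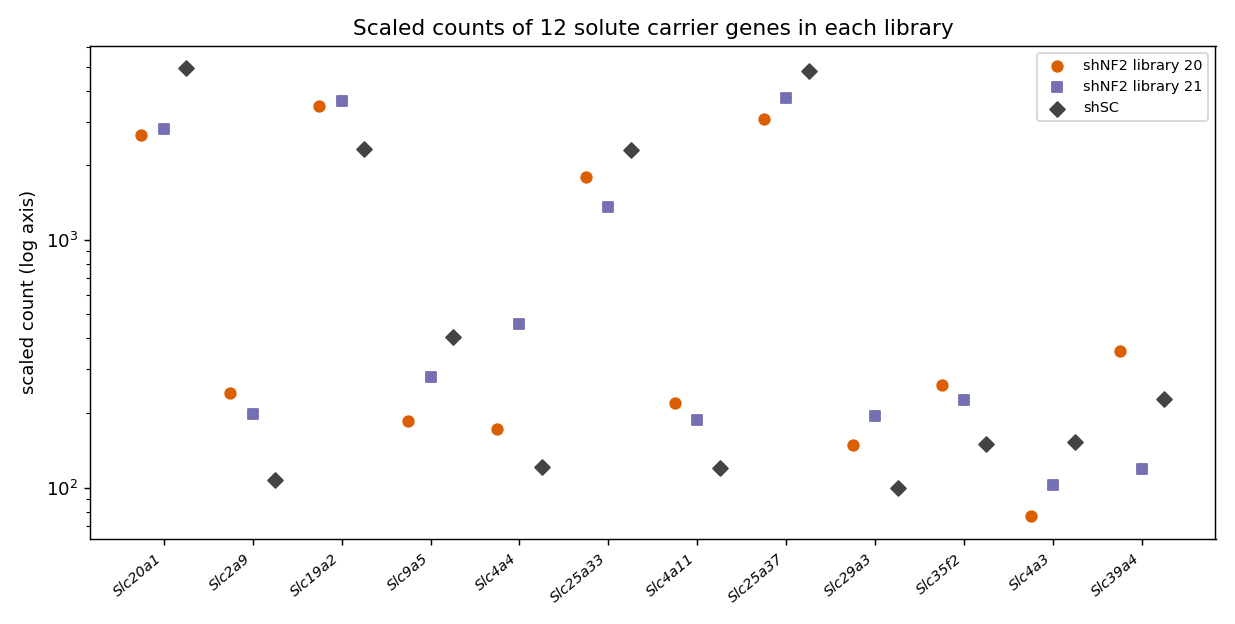
Scaled counts (log axis) of the 11 rows with an unadjusted p under 0.05 and of Slc39a4, in shNF2 library 20 (circle), shNF2 library 21 (square) and shSC (diamond). In Slc20a1 both shNF2 values, 2644 and 2797, lie below the shSC value of 4936; in Slc39a4 the shSC value of 227 lies between 357 and 119.

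Among the other ion carriers, the largest differences were in bicarbonate and sodium-proton transporters, and none of them passed. Slc4a4, a sodium-bicarbonate cotransporter, had 172 and 459 scaled counts in libraries 20 and 21, against 121 in shSC. Both were above shSC, library 21 far more so, at 0.50 and 1.92 on the log2 scale, and the combined value was 1.21 ± 0.45 (SE; limma adjusted p = 0.376). Slc4a11, a bicarbonate-family member known for its role in the corneal endothelium, had 220 and 187, against 120 in shSC, and its combined value was 0.75 ± 0.32 (SE; limma adjusted p = 0.468). Slc4a3, an anion exchanger, lay the other way, with 76.4 and 102 scaled counts in libraries 20 and 21 and 153 in shSC (-0.79). Slc9a5, a sodium-proton exchanger best known from the nervous system, had 185 and 279, against 407 in shSC (-0.84 ± 0.31, SE; limma adjusted p = 0.378). The 6 members of the Slc4 family thus ran from -0.79 to 1.21, with 2 above shSC in both libraries and 3 below it in both.

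Slc12a2, the sodium-potassium-chloride cotransporter that sets cell volume and chloride, had 4756 and 5114 scaled counts in libraries 20 and 21, against 3995 in shSC. Its 95% interval ran from -0.14 to 0.75. The 5 Slc12 rows lay between -0.25 and 0.30. Slc41a1, a magnesium transporter, had -0.30. Of the sodium pump subunit genes outside the Slc families, Atp1b1 had a log2 fold change of 0.57, and Atp1b3 had 3900 and 8485 scaled counts in libraries 20 and 21, against 8700 in shSC.

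Slc39a4, which encodes the zinc importer ZIP4, gave opposite values in the 2 shNF2 libraries. It had 357 scaled counts in library 20 and 119 in library 21, against 227 in shSC. The control thus lay between the shNF2 libraries, with log2 fold changes of 0.65 and -0.93. The combined value of -0.14 ± 0.48 (SE) did not pass (limma adjusted p = 0.958), its standard error was the highest among the rows, and its 95% interval was -1.18 to 0.90. Only Slc39a4 and Slc4a4 differed at least 2-fold between libraries 20 and 21, which is 1.27% of the rows beside 3.83% of all genes tested and 1.71% of those with a mean of at least 50. These differences between single libraries were not tested. In library 21 the log2 fold changes of the 157 rows went with GC content, taken from human transcripts of the same symbol, with a Spearman's rho of -0.362 across genes, which are not independent replicates, against -0.0719 in library 20. The same held for all tested genes with a stand-in, at -0.373 in library 21 and -0.0379 in library 20. The stand-in for Slc39a4 had 66.6% GC. With values corrected for GC and length, Slc39a4 had 0.71 in library 20 and -0.62 in library 21, and Slc4a4 had 0.49 and 1.71.

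In the other 9 rows of the Slc39 family, whose proteins bring zinc and other metals into the cytosol, the log2 fold changes of single libraries ran from -0.39 to 0.38. In the 6 rows of the Slc30 family, most of whose proteins move zinc out of the cytosol, they ran from -0.22 to 0.61. Slc30a1, the zinc exporter of the plasma membrane, had 109 and 122 scaled counts in libraries 20 and 21, against 79.8 in shSC. Both values were above shSC, and the log2 fold change of 0.53 ± 0.35 (SE) did not pass (limma adjusted p = 0.707). Slc39a1, a zinc importer, had 4041 and 3725, against 4241 in shSC (-0.13). The metallothionein genes Mt1 and Mt2, whose proteins bind zinc and copper, had -0.36 and -0.26 and did not pass.

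Iron carriers of the plasma membrane and endosome had small differences, and none passed. Slc11a2, which carries ferrous iron out of endosomes, had a log2 fold change of 0.08. Slc40a1, which encodes the iron exporter ferroportin, had 1324 and 1045 scaled counts in libraries 20 and 21, against 968 in shSC, a value of 0.28. The transferrin receptor gene Tfrc and the ferritin gene Fth1, which take up and store iron, had 0.27 and -0.32 and did not pass.

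Among amino acid carriers, 11 of 19 rows (57.9%) were above shSC in both libraries and 2 (10.5%) below, beside 36.1% and 35.8% of all genes tested, and 0 passed. The median log2 fold change was 0.12, and the count was not tested. The medians were 0.11 in library 20 and 0.09 in library 21, beside 0.01 and 0.00 over all genes tested. Slc3a2, the heavy chain that carries several light chains to the cell surface, had 3424 and 3137 scaled counts in libraries 20 and 21, against 2927 in shSC. Its light chain Slc7a5, an importer of large neutral amino acids, had 1999 and 2156, against 1906 in shSC. Both genes lay a little above shSC in both libraries, with log2 fold changes of 0.16 and 0.12. All 5 rows of the Slc7 family were above shSC in both libraries, from 0.12 to 0.58, including the cationic amino acid transporter Slc7a1 at 0.18. The highest, Slc7a4, had 130 and 65.1 scaled counts in libraries 20 and 21, against 61.3 in shSC. Its 0.58 thus came mostly from library 20, at 1.07, with 0.08 in library 21. Slc7a7, at 0.41, had 0.16 in library 20 and 0.67 in library 21. The glutamine carriers Slc1a5 and Slc38a2 had 0.14 and -0.02. The 95% intervals of Slc1a5 and Slc38a2 were -0.32 to 0.60 and -0.48 to 0.43. Slc6a9, a glycine transporter, was the row furthest below shSC in this class, with 202 and 167 scaled counts in libraries 20 and 21 and 270 in shSC (-0.55 ± 0.30, SE; limma adjusted p = 0.643).

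Only 5 sugar carriers and related genes were above the limit. Slc2a9 belongs to the glucose transporter family and is best known for carrying urate. It had 242 and 199 scaled counts in libraries 20 and 21, against 107 in shSC. Both shNF2 values were above the control, and the log2 fold change of 1.03 ± 0.32 (SE) did not pass (limma adjusted p = 0.228). Slc5a3, which imports the osmolyte myo-inositol, had 580 and 539, against 797 in shSC (-0.51, limma adjusted p = 0.551). Slc37a4, the glucose-6-phosphate carrier of the endoplasmic reticulum, had -0.30.

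Of the 32 Slc25 rows, 19 (59.4%) were below shSC in both libraries and 9 (28.1%) above it, beside 35.8% and 36.1% of all genes tested, and 0 passed. Their median log2 fold change was -0.13, at -0.02 in library 20 and -0.11 in library 21, beside 0.01 and 0.00 over all genes tested. This count was not tested. Slc25a33, which carries pyrimidine nucleotides, had 1803 and 1353 scaled counts in libraries 20 and 21, against 2320 in shSC. Slc25a37, which encodes the iron importer mitoferrin 1, had 3095 and 3734, against 4815 in shSC. Both genes were below shSC in both libraries, at -0.57 ± 0.24 and -0.50 ± 0.22 on the log2 scale (SE; limma adjusted p = 0.445 and 0.486). Slc25a22, a glutamate carrier, had -0.42. On the other side, Slc25a16 had 387 and 439, against 294 in shSC (0.49), and the aspartate-glutamate carrier Slc25a12 had 0.27. The carriers that serve ATP synthesis lay near 0. The ADP/ATP exchangers Slc25a4 and Slc25a5 had 0.03 and 0.06, and the phosphate carrier Slc25a3 had -0.15. Mpc1 and Mpc2, which encode the mitochondrial pyruvate carrier, had 0.07 and -0.38 and did not pass.

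**Figure D4:**
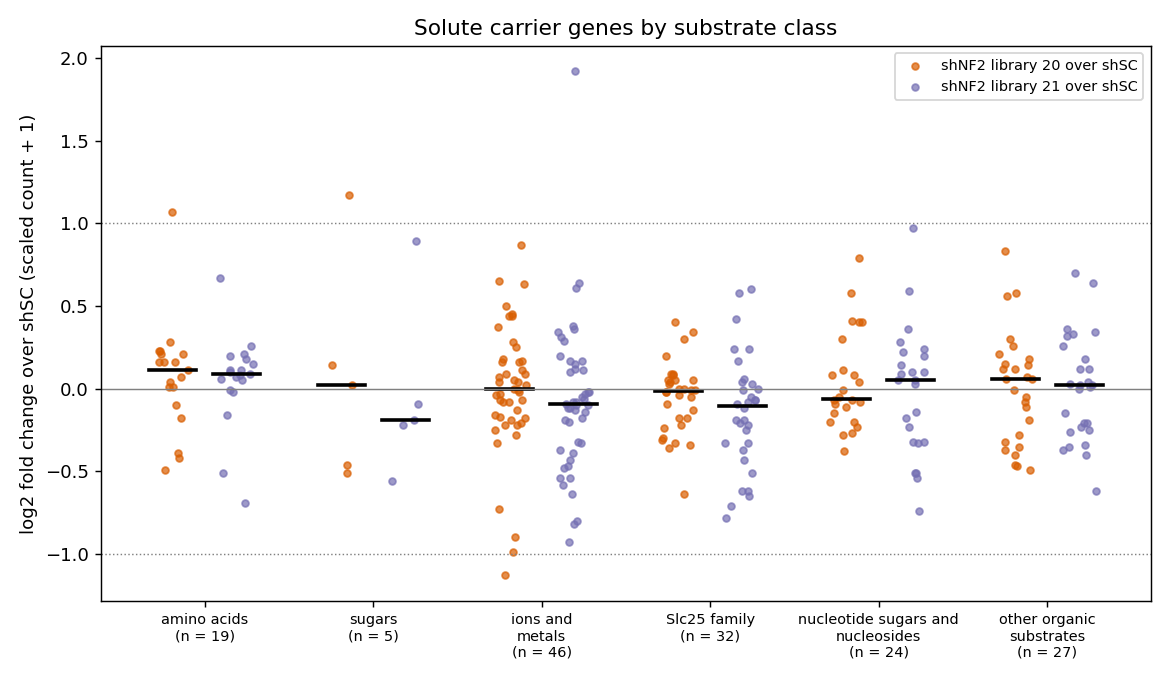
Log2 fold change over shSC of each carrier (points) in shNF2 library 20 (orange) and library 21 (violet), by substrate class; thick bars are class medians and dotted lines mark a 2-fold change. The class medians lie between -0.19 and 0.11.

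Of the 24 rows for nucleotide sugars and nucleosides, 9 (37.5%) were above shSC in both libraries and 9 (37.5%) below. The shares over all genes tested were 36.1% and 35.8%, so the class did not stand apart from this background. Slc29a3, a nucleoside transporter of lysosomes, had 149 and 195 scaled counts in libraries 20 and 21, against 99.3 in shSC. Slc35f2 had 259 and 226, against 150 in shSC. Both were above shSC in both libraries, at 0.77 and 0.69 on the log2 scale (limma adjusted p = 0.50 each). Slc35b3, which brings the sulfate donor PAPS into the Golgi, had 1682 and 1503, against 2189 in shSC (-0.46). Slc29a1, the main equilibrative nucleoside transporter of the plasma membrane, had -0.28, and the UDP-galactose carrier Slc35a2 had -0.35.

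Among the other organic substrates, Slc19a2 stood furthest above shSC. It encodes a thiamine importer and had 3484 and 3629 scaled counts in libraries 20 and 21, against 2325 in shSC. The shNF2 values were close to each other and both above the control, with a log2 fold change of 0.61 ± 0.21 (SE) and a 95% interval of 0.16 to 1.06 (limma adjusted p = 0.303). Slc16a1, a monocarboxylate transporter that moves lactate and pyruvate with protons, had 6117 and 6402, against 5871 in shSC (0.09, 95% interval -0.35 to 0.54). Bsg, the chaperone that brings it to the cell surface, had -0.12. Slc27a1, a fatty acid transport protein, and Slc46a1, a proton-coupled folate transporter, had -0.45 and -0.42. Slc5a6, which imports biotin and pantothenate, and Slc48a1, a heme transporter, had 0.28 and 0.26.

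The 4 rows that are not carriers did not pass either. Slc9a3r1 and Slc9a3r2 encode scaffold proteins that link membrane proteins to ezrin and its relatives, the family to which merlin belongs. Slc9a3r1 had 1176 and 909 scaled counts in libraries 20 and 21, against 888 in shSC. Slc9a3r2 had 233 and 156, against 124 in shSC. Both were above shSC in both libraries, at log2 fold changes of 0.22 and 0.62, with 95% intervals of -0.31 to 0.74 and -0.12 to 1.36. Slc4a1ap and Slc7a6os had 0.40 and -0.28.

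Of the companion genes listed beside the carriers (pumps, metal-binding proteins and transporters without an Slc symbol), 38 were tested and 0 passed, with a median log2 fold change of -0.07. The lowest was Atp7b, a copper pump, with 45.0 and 52.5 scaled counts in libraries 20 and 21 and 128 in shSC (-1.37, limma adjusted p = 0.176).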

How the data were processed

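The deposited values are gene signal, which the authors' table names scaled counts. DESeq 1.22.1, HTSeq 0.5.3, STAR 2.5.0a, cutadapt 1.6 and the mouse build mm10 are listed in the submitters' processing notes, which give no steps. As the deposited values show, each column is whole reads divided by 1 factor per library (1.03 for shSC, 0.956 for library 20, 1.03 for library 21); 100% of values came out whole within 0.001 reads. Rows that name no gene held 48.7%, 47.7% and 48.6% of the values in libraries 20, 21 and shSC and were left out; reads that aligned to several places are among them, so genes with near-identical copies may be undercounted.

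limma 3.58.1 (R 4.3.3) with a variance trend was run on log2(scaled count + 1) for genes averaging 10 or more, and p-values were adjusted over all of them by Benjamini-Hochberg. There was 1 residual degree of freedom, between libraries 20 and 21, moderated with 11.9 prior degrees of freedom, and shSC was taken to vary like shNF2. Alternatives included edgeR 4.0.16 and DESeq2 1.42.0 on the recovered reads. The length and GC correction (mgcv 1.9.3), added after the data were seen, used human GENCODE transcripts as stand-ins, for 100% of the rows and 80.8% of tested genes. Simulated counts were used to check the scripts.

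The members and lists were chosen with earlier results of these data known. Genes named were Slc39a4, a list of well-known carriers, and in each substrate class up to 4 rows furthest above and 4 furthest below shSC by the smaller of both libraries' changes. Slc20a2, Slc7a4, Slc7a6os, Slc41a3 and Slc22a18 and the companion genes came from their family, the row limit or the companion list. No sequences are shown, since mouse sequences were not used here, and promoter motifs were not analysed here. Some genes that the rule names are not reported here.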

Additional observations from a re-analysis of the deposited data

How the results depend on the processing

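No carrier passed in the upward direction under any of the 10 alternative fits. In the downward direction the count was 0 except without the filter on low values and after length and GC correction, where it was 1 in each, Slc20a1 both times, at limma adjusted p = 0.0317 with a log2 fold change of -0.86 and limma adjusted p = 0.0394 with -0.90. Quantile normalization, also added after the data were seen, and limma without a variance trend called 0 genes in the whole table. With a fold limit of 1.5 in place of 2, 3 rows (1.91%) were above shSC in both libraries and 1 (0.637%) was below, beside 3.82% and 3.98% of all genes tested. With 1 shNF2 library left out, the median log2 fold change of the rows ran from -0.03 to 0.00. A comparison of 1 library against 1 allows no test. Signs were compared across settings for 59 of the 157 rows. Among these 59 the sign turned for Slc39a4 with edgeR (0.06), DESeq2 (0.06) and length and GC correction (0.05). It also turned for Slc25a3 with quantile normalization (0.02). After length and GC correction it turned for Slc25a4 (-0.08), Slc35c1 (0.04) and Slc16a1 (-0.01). None of these values passed. With 1 library left out, the sign turned among the 59 for Slc38a2 (0.05 without library 20) and Slc39a4 (0.65 without library 21). For all 34 rows with libraries on opposite sides of shSC, the sign depends on which library is left out. No paired analysis was possible with 1 shSC library for 2 shNF2 libraries. With 1 shSC library, its own deviation enters every value above.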
